A study of Arabidopsis thaliana with 24 samples.

Results

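The genes described here are 3 cell wall hydrolase genes of Arabidopsis thaliana: AT1G60590 and AT1G48100, both polygalacturonase-like, and GH9B13 (glycosyl hydrolase 9B13, AT4G02290). They were chosen by their difference between light and dark on these same arrays, so their light changes are given as a description with no test. They are 3 of 13350 genes with a probe set named for that gene alone, and each is read by 1 such probe set. Affymetrix ATH1 arrays, 24 in all, measured polysome-bound and total RNA of the aerial parts of 4-d-old etiolated seedlings. The groups were dcp5-1 given 4 h of white light, control given the same light, dcp5-1 kept in the dark and control kept in the dark, each as polysomal and as total RNA with 3 biological replicates. Both genotypes were in the Col-0 ecotype. The line dcp5-1 carries a mutation in DCP5, whose protein belongs to processing bodies, where mRNAs are stored away from ribosomes or decayed. The 1 mutant line cannot separate an effect of the gene from that of the line, and the level of DCP5 was not analysed here.

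Polygalacturonases cut the homogalacturonan backbone of pectin, the gel-forming polysaccharide of the primary cell wall, and act best where pectin methylesterases have first removed its methyl groups. Enzymes of glycoside hydrolase family 9 are endo-beta-1,4-glucanases, which act on cellulose or related glucans and take part in wall assembly and growth. In a seedling grown in darkness the hypocotyl elongates and the cotyledons stay folded and small, and light slows the hypocotyl and starts cotyledon expansion. Both processes need the wall to be loosened and rebuilt in different organs.

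On all 24 arrays the values were log2 signals. Medians were 7.33 to 7.44 on the total arrays and 4.41 to 6.76 on the polysomal arrays, so each polysomal array was moved by 0.64 to 2.99 to a common median of 7.39, and a polysomal level below is relative to its array's median. Replicates of a group correlated at r = 0.93 to 0.96 across probe sets. Of 9 listed green tissue genes 2 had a probe set named for that gene alone, Rubisco activase (RCA) and the light-harvesting gene LHCB4.3. Their summed signal moved with light: in total RNA it was 21970 to 29160 in dcp5-1 light, 22360 to 27830 in control light, 6699 to 11280 in dcp5-1 dark and 5429 to 7499 in control dark. Its part in the light differences below was not tested. Of 11 listed root genes 2 had such a probe set, the root hair expansin EXPA7 and HRGP1, with sums of 85.05 to 792.1. No defining marker with a probe set was at its array's lowest value, and fewer cells of a type cannot be told apart from less RNA per cell in whole aerial tissue.

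AT1G60590 was high in every light sample and low in every dark sample. Its polysomal levels were 10.37, 9.98 and 9.30 in dcp5-1 light and 11.04, 9.94 and 10.15 in control light. In the dark they were 4.27, 4.86 and 2.75 in dcp5-1 and 4.04, 4.78 and 0.23 in control. The last value, in control dark replicate 3, lay 0.13 above the lowest value of that array, and the dark polysomal replicates of control were the most scattered of any group (SD 2.44, n = 3). In total RNA the levels were 10.59, 9.98 and 9.51 in dcp5-1 light and 10.98, 10.01 and 10.13 in control light. The dark total levels were 4.21, 4.32 and 3.97 in dcp5-1 and 4.87, 2.79 and 3.94 in control. Within each light condition and fraction the genotypes overlapped, and no light array came near a dark one. Averaged over the dark arrays AT1G60590 was at 3.75, below the limit of 4.82 that marks the lowest 25% of probe sets there, and it passed the filter on dim probe sets only through its light arrays (mean 10.16).

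AT1G48100 was also high in every light sample and low in every dark sample. In polysomal RNA it read 9.16, 8.86 and 8.45 in dcp5-1 light and 9.58, 9.45 and 8.63 in control light. The dark polysomal levels were 4.06, 4.18 and 5.38 in dcp5-1, against 1.67, 5.09 and 3.44 in control. The control dark replicates again spread widely, with replicate 1 the lowest. In total RNA the light levels were 10.07, 9.81 and 10.01 in dcp5-1 and 10.40, 10.43 and 10.17 in control, and these did not overlap. Dark total levels were 5.33, 5.29 and 4.78 in dcp5-1 and 5.12, 4.10 and 4.39 in control, which did overlap. Its mean over the dark arrays, 4.40, was also below the limit of 4.82, so it too passed the filter through the light arrays, although dcp5-1 dark total RNA, at 5.13, was above that group's own limit of 5.00, while GH9B13 lay above the limit in every group. The light means of this gene were lower in polysomal than in total RNA in each genotype, at 8.82 ± 0.36 against 9.96 ± 0.14 in dcp5-1 and 9.22 ± 0.51 against 10.33 ± 0.15 in control (SD, n = 3 each).

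GH9B13 ran the other way, low in the light and high in the dark. Its polysomal levels were 7.88, 8.00 and 6.91 in dcp5-1 light and 6.01, 7.02 and 6.83 in control light. The dark polysomal levels were 11.24, 11.27 and 11.07 in dcp5-1 and 11.44, 11.66 and 11.53 in control. Dark replicates thus lay within a narrow range in each genotype, with control above dcp5-1 and no overlap. In total RNA the light levels were 6.99, 6.35 and 6.72 in dcp5-1 and 5.93, 5.96 and 6.09 in control. The dark total levels were 10.88, 10.27 and 10.74 in dcp5-1 and 10.89, 11.06 and 11.07 in control. In total RNA the genotypes did not overlap in either light condition, with dcp5-1 above control in light and below it in the dark. The dark groups nearly met, at 10.88 in dcp5-1 and 10.89 in control, and that difference did not pass the test below.

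Ordered by mean level within a fraction, AT1G60590 and AT1G48100 had the same sequence in both fractions: control light, dcp5-1 light, dcp5-1 dark, control dark. For GH9B13 the sequence was control dark, dcp5-1 dark, dcp5-1 light, control light. The step between the light and dark groups was 6.9 to 20.5 times the SD of replicates pooled over its 2 groups. Neighbours of the same light condition lay 0.40 to 3.2 such SDs apart. Those that overlapped were every genotype pair of AT1G60590, all pairs of AT1G48100 except light total RNA, and light polysomal RNA for GH9B13. The share of all probe sets whose groups did not overlap is not given here.

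**Figure D1:**
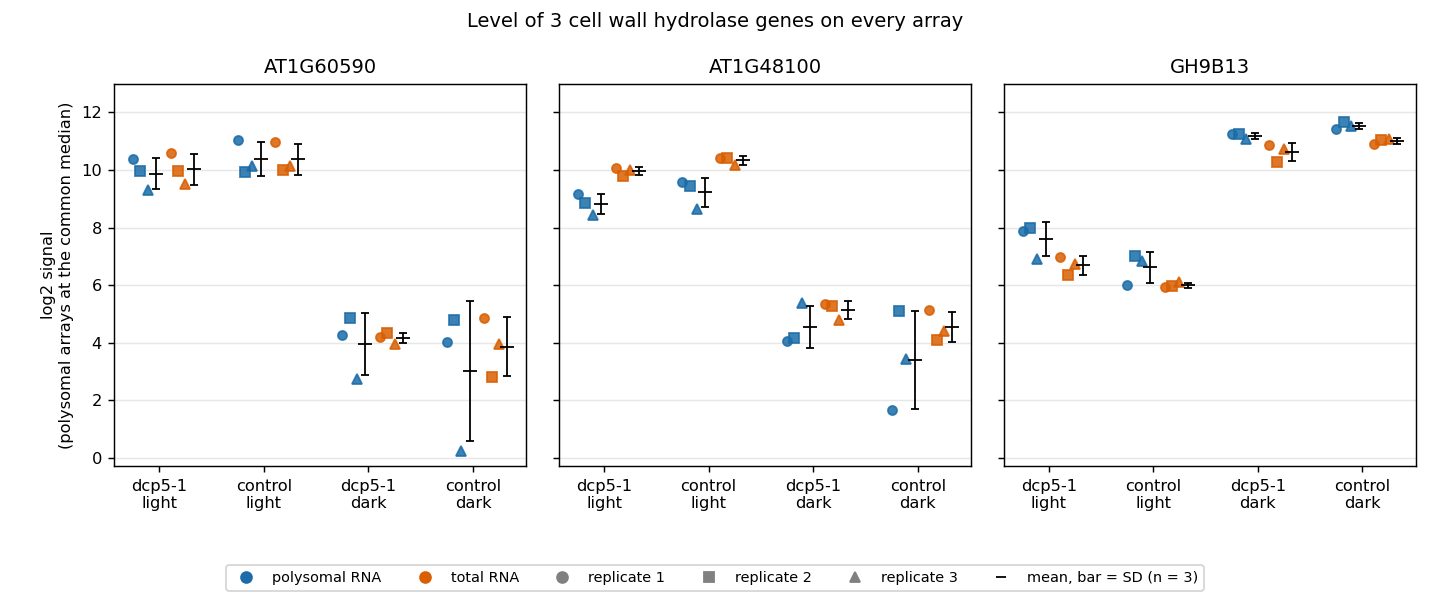
Log2 signal (vertical axis) of AT1G60590, AT1G48100 and GH9B13 on each of the 24 arrays, by genotype and light condition, with polysomal RNA in blue and total RNA in orange, symbols for replicates, and the mean with its SD (n = 3) beside them. The polygalacturonase-like genes sit between 8.45 and 11.04 in the light and at or below 5.38 in the dark, and GH9B13 sits at or below 8.00 in the light and above 10.2 in the dark.

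In total RNA, AT1G60590 was higher in light than in dark by 5.86 ± 0.76 in dcp5-1 and by 6.51 ± 0.76 in control (log2 difference, SE from the fit), which is 58.0-fold and 91.0-fold. AT1G48100 was higher by 4.83 ± 0.52 in dcp5-1 and 5.80 ± 0.52 in control, or 28.4-fold and 55.5-fold. GH9B13 was lower in light, with differences of -3.94 ± 0.26 in dcp5-1 and -5.01 ± 0.26 in control, or 15.4-fold and 32.3-fold. Among the 9513 tested probe sets named for 1 gene, AT1G60590 ranked 3 in dcp5-1 and 2 in control by the size of a higher light value, and AT1G48100 ranked 9 and 7. Among lower light values GH9B13 ranked 7 in dcp5-1 and 4 in control. These ranks restate how the genes were chosen.

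The polysomal light differences had the same signs. AT1G60590 differed by 5.92 ± 0.76 in dcp5-1 and by 7.36 ± 0.76 in control, where the replicate pairs ran from 5.16 to 9.92. Without control dark polysomal replicate 3, the array with the near-lowest value, the control difference was 5.97. AT1G48100 differed by 4.28 ± 0.52 in dcp5-1 and 5.82 ± 0.52 in control, with control pairs of 4.36 to 7.91. For GH9B13 the differences were -3.59 ± 0.26 in dcp5-1 and -4.92 ± 0.26 in control. All 3 replicate pairs of each gene, genotype and fraction had the direction of the mean, and no light group overlapped its dark group. As background, the test called 21.8% of 17059 probe sets for light in dcp5-1 total RNA, 29.5% in control total RNA, 21% in dcp5-1 polysomal RNA and 29.1% in control polysomal RNA.

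**Figure D2:**
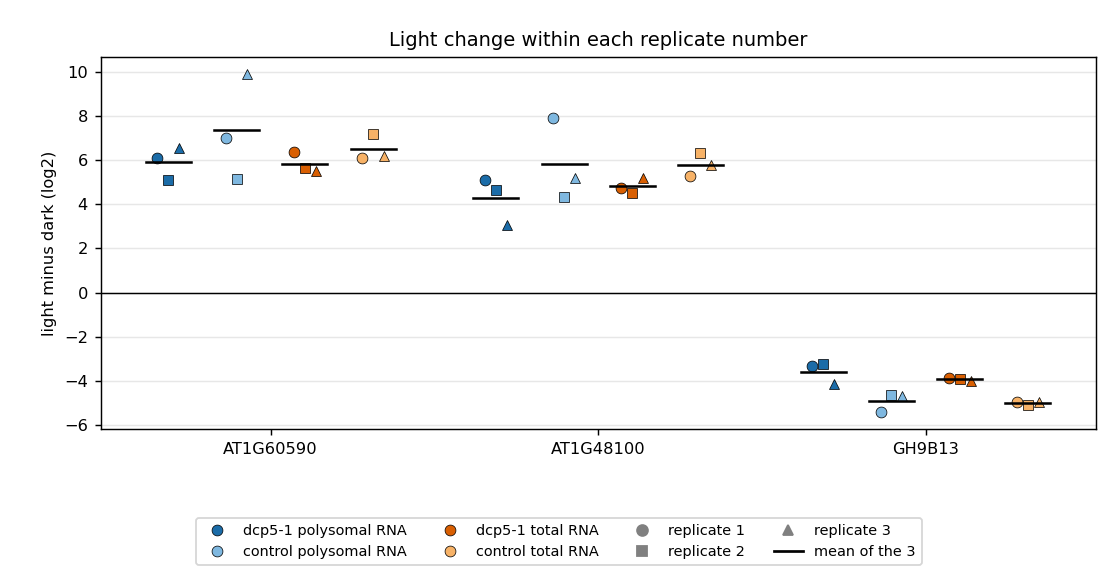
Light minus dark (log2, vertical axis) within each replicate number for the 3 genes, by genotype and RNA fraction, with symbols for replicate numbers and a line at the mean of the 3. All values of AT1G60590 and AT1G48100 lie between 3.07 and 9.92, all values of GH9B13 lie between -3.27 and -5.43, and the dcp5-1 means are nearer to 0 than the control means.

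For every gene and fraction the mean light difference was nearer to 0 in dcp5-1 than in control. The light difference in dcp5-1 minus that in control was 1.07 ± 0.36 (SE) for GH9B13 in total RNA, with pairs of 0.96 to 1.18. In polysomal RNA it was 1.33 ± 0.36 with pairs of 0.54 to 2.07. For AT1G48100 it was -0.97 ± 0.74 in total RNA and -1.54 ± 0.74 in polysomal RNA, where the pairs ran from -2.81 to 0.32. AT1G60590 gave -0.65 ± 1.08 in total RNA and -1.44 ± 1.08 in polysomal RNA. These differences use the light changes by which the genes were chosen and carry no test. Over all probe sets too, fewer were called for light in dcp5-1 than in control. The shares were 21.8% against 29.5% in total RNA and 21% against 29.1% in polysomal RNA. How many probe sets had a smaller difference in dcp5-1 is not given here.

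Set directly against control, dcp5-1 differed in GH9B13 in light polysomal RNA and in no other case that passed the test. The level was 7.60 ± 0.60 in dcp5-1 light and 6.62 ± 0.54 in control light (SD, n = 3 each), a difference of 0.98 ± 0.26 (limma, adjusted p = 0.0294, 95% interval 0.45 to 1.51), higher in 3 of 3 replicate pairs although the groups overlapped. In this contrast 4.33% of all probe sets were called, against 1 of the 3 genes. The SE and interval use a spread shared by all 8 groups, which takes in the tighter dark arrays. In dark polysomal RNA GH9B13 had an SD of 0.11 in each genotype. The adjusted p was 0.236 when the compared groups were fitted alone, 0.337 with the polysomal arrays as deposited, 0.167 without control light polysomal replicate 1, and 0.114 or 0.163 without dcp5-1 light polysomal replicate 1 or 2. In light total RNA GH9B13 averaged 6.69 ± 0.32 in dcp5-1 and 5.99 ± 0.09 in control (SD, n = 3 each), a difference of 0.69 ± 0.26 that did not pass (limma, adjusted p = 0.16). Genotype and light contrasts share arrays, so these values are not independent of the light responses above.

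In the dark the GH9B13 difference between dcp5-1 and control was -0.38 ± 0.26 in total RNA and -0.35 ± 0.26 in polysomal RNA (limma, adjusted p = 0.587 and 0.558). With the polysomal arrays as deposited the polysomal value turned to 0.54, where the median of all probe sets is 0.88. In the light AT1G48100 differed by -0.37 ± 0.52 in total RNA and -0.40 ± 0.52 in polysomal RNA (limma, adjusted p = 0.818 and 0.77), and AT1G60590 by -0.35 ± 0.76 and -0.50 ± 0.76 (0.898 and 0.81). These SEs take in the scattered dark arrays. In light total RNA AT1G48100 had SDs of 0.14 in dcp5-1 and 0.15 in control. The dark values of both genes come from dim signals and are given as a description with no test. AT1G48100 differed by 0.60 in dark total RNA and 1.14 in dark polysomal RNA, with 2 of 3 polysomal pairs above 0. AT1G60590 differed by 0.30 and 0.94, and leaving out control dark total replicate 2 or control dark polysomal replicate 3 turned these to -0.24 and -0.45. As deposited, the dark polysomal values were 2.03 for AT1G48100 and 1.83 for AT1G60590. In limma 0 of the 3 genes were called in light total RNA, where 3.51% of all probe sets were, and 1 had an unadjusted p under 0.05. In the dark GH9B13, which was bright there, was not called in total or polysomal RNA, where 2.34% and 3.32% of all probe sets were, and its unadjusted p was 0.155 and 0.188.

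The root markers stood higher in dcp5-1 beside these contrasts. Their summed signal was 190.7 to 687.2 in dcp5-1 and 102.2 to 112.6 in control in dark total RNA, and 189.7 to 354 in dcp5-1 and 85.05 to 116 in control in light total RNA. In polysomal RNA it was 364.6 to 792.1 in dcp5-1 dark and 93.28 to 198.1 in control dark, and 266.6 to 462 in dcp5-1 light and 85.25 to 149 in control light. HRGP1, the only one of the pair above the filter on dim probe sets, was higher in dcp5-1 by 1.38 in light polysomal RNA (limma, adjusted p = 0.0357) and by 1.25 in light total RNA (adjusted p = 0.0663). In the dark HRGP1 was higher by 1.85 in polysomal and 1.69 in total RNA (limma, adjusted p = 0.00574 and 0.0138), and the suffix of its probe set marks probes that may be shared with related genes. Its part in the genotype values of the hydrolase genes was not tested.

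Polysome loading, the polysomal minus the total level relative to the array medians, passed the test for GH9B13 in dcp5-1 light. There the gene had 7.60 ± 0.60 in polysomal and 6.69 ± 0.32 in total RNA (SD, n = 3 each), a loading of 0.91 ± 0.26 (limma, adjusted p = 0.0211, 3 of 3 pairs above 0, groups overlapping). The test called 12.7% of probe sets there. The SE of this loading also uses the shared spread, with the tighter dark arrays in it. The adjusted p was 0.0649 with the compared groups alone, 0.0853 or 0.125 without dcp5-1 light polysomal replicate 1 or 2, and 0.103 or 0.0575 without dcp5-1 light total replicate 2 or 3. With the polysomal arrays as deposited the value was -0.04, since every probe set then moves with its array. In the other groups GH9B13 had loadings of 0.56 in dcp5-1 dark, 0.63 in control light and 0.54 in control dark, each with 3 of 3 pairs above 0, and adjusted p of 0.152, 0.109 and 0.184 in limma. Without control light polysomal replicate 1 the control light value was 0.93 with an adjusted p of 0.0143.

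AT1G48100 had loadings of -1.14 in dcp5-1 light and -1.11 in control light, each with no overlap of polysomal and total arrays, and neither passed (limma, adjusted p = 0.159 and 0.169). Fits on the compared groups alone, which leave the scattered dark arrays out of the SE, gave adjusted p of 0.00447 in dcp5-1 light and 0.0355 in control light. AT1G60590 had loadings near 0 in the light, at -0.15 in dcp5-1 and 0.00056 in control (limma, adjusted p = 0.927 and 1). In control light 0 of the 3 genes were called in limma, against 13.7% of all probe sets, and 2 had an unadjusted p under 0.05. In dcp5-1 dark and control dark 13.8% and 12.5% of probe sets were called, and GH9B13 was not, at an unadjusted p of 0.0383 and 0.0482. The dark loadings of the other genes, read from dim signals and not tested here, were -0.59 in dcp5-1 and -1.14 in control for AT1G48100 and -0.21 and -0.85 for AT1G60590, with polysomal and total arrays overlapping. The light change of loading, given with no test, was 0.35 for GH9B13, -0.54 for AT1G48100 and 0.06 for AT1G60590 in dcp5-1, and 0.09, 0.03 and 0.85 for the same genes in control.

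**Figure D3:**
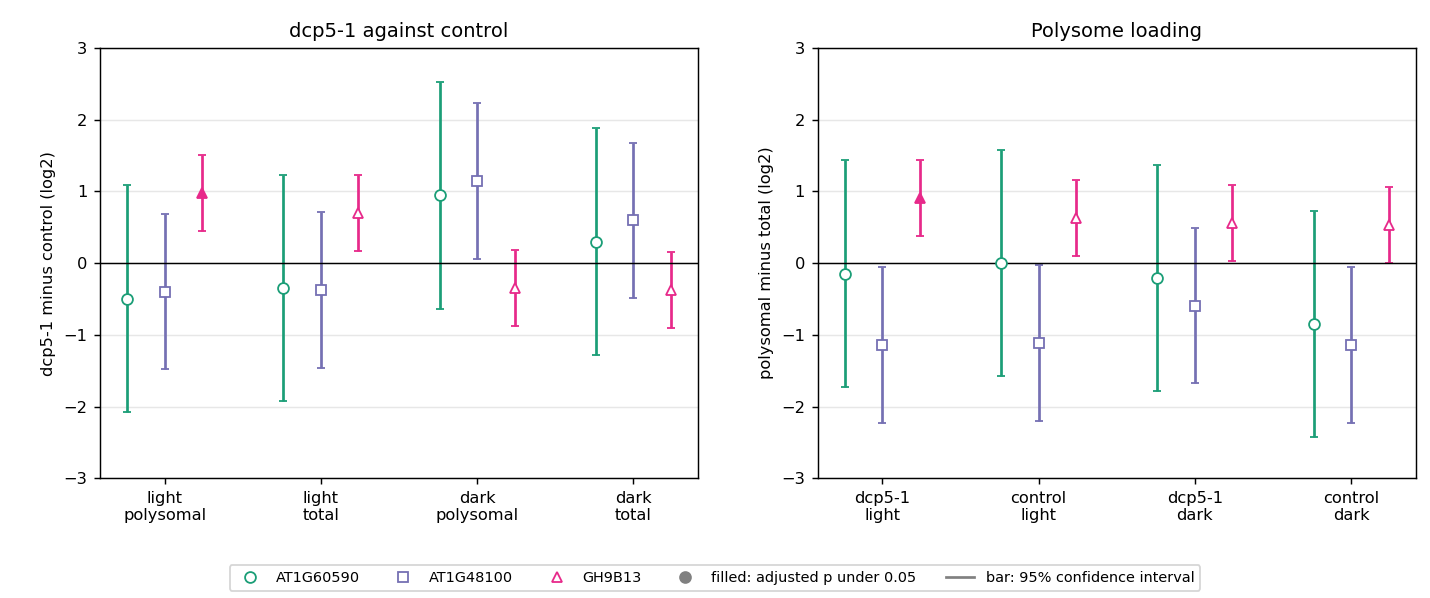
Left, dcp5-1 minus control (log2), and right, polysomal minus total level (log2, relative to array medians), for the 3 genes in each condition, with bars for the 95% confidence interval and filled symbols for an adjusted p under 0.05. The dark values of AT1G60590 and AT1G48100 are from dim signals. Only GH9B13 is filled, at 0.98 for dcp5-1 against control in light polysomal RNA and at 0.91 for loading in dcp5-1 light.

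Over the 8 group means AT1G60590 and AT1G48100 correlated at r = 0.987, and GH9B13 correlated with them at r = -0.988 and -0.993. These points share arrays and are set mostly by light against dark. Among 9510 other tested genes, the 3 most like AT1G60590 were AT2G35260, AT5G57345 and RR16, a response regulator of the cytokinin signalling family (r = 0.997 to 0.998). Those most like AT1G48100 were EXPB3, a beta-expansin, AT3G10060 and AT3G57020, at r = 0.994 to 0.996. The ones most like GH9B13 were ACA.l, AT1G06930 and AT3G10190, at r = 0.995 to 0.998. Such likeness was common, since 626, 578 and 564 genes had r over 0.9 with AT1G60590, AT1G48100 and GH9B13. Their light differences in total RNA were mostly smaller than those of the hydrolase genes: RR16 had 2.68 in dcp5-1 and 2.60 in control, EXPB3 had 3.15 and 3.50, and ACA.l had -1.68 and -2.23. AT3G57020 was the largest of the 9, at 5.14 in dcp5-1 and 6.15 in control.

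Other enzymes of pectin and glucan metabolism were followed through 6 lists of 202 loci, which leave out the 3 genes. Of these, 130 had a probe set named for that gene alone and 70 passed the filter on dim probe sets. None of the listed cellulose synthases had such a probe set in the annotation used, so their levels were not seen. Most of the listed genes carry a locus and no symbol in the tables used, so membership rests on general knowledge of the families. Listed genes named for light were picked by their adjusted p in control. That choice tends to favour larger values in control than in dcp5-1. In light against dark, 13 of the 70 were higher and 15 lower in dcp5-1 total RNA (limma, adjusted p under 0.05), and 13 were higher and 22 lower in control total RNA. In polysomal RNA 11 were higher and 15 lower in dcp5-1, and 10 were higher and 24 lower in control. These are 40%, 50%, 37.1% and 48.6% of the tested members, beside 21.8%, 29.5%, 21% and 29.1% of all probe sets. Over all probe sets 11.1% were called higher and 10.7% lower in dcp5-1 total RNA, 14.4% and 15.1% in control total RNA, 10.4% and 10.6% in dcp5-1 polysomal RNA, and 13.6% and 15.5% in control polysomal RNA. With the polysomal arrays as deposited, the counts were 11 higher and 3 lower in dcp5-1 polysomal RNA and 40 higher and 4 lower in control polysomal RNA, where the medians of all probe sets are 0.34 and 1.23. The total RNA counts were then 8 higher and 8 lower in dcp5-1 and 10 higher and 12 lower in control.

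Polygalacturonases on the list were called in both directions, as all probe sets were. Of 20 tested, 3 rose and 3 fell in dcp5-1 total RNA, beside 11.1% and 10.7% of all probe sets, and 4 rose and 4 fell in control total RNA, beside 14.4% and 15.1%, with medians of -0.15 and -0.15 beside -0.05 and -0.04 over all probe sets. AT1G10640 rose by 2.04 ± 0.34 in dcp5-1 and 3.39 ± 0.34 in control total RNA (limma, adjusted p = 0.000105 and 6.69e-08). AT3G15720 rose by 2.25 and 1.94, and AT2G43870 by 1.74 and 1.96. Among those that fell, AT3G57790 changed by -0.95 in dcp5-1 and -0.83 in control, AT3G16850 by -0.64 and -0.83, and AT3G06770 by -0.61 and -0.96. In control polysomal RNA the last 3 fell too, by values that turn positive when the polysomal arrays are taken as deposited.

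Among 10 tested genes of family GH9, the family of GH9B13, 3 rose and 1 fell in dcp5-1 total RNA, and 2 rose and 3 fell in control total RNA. As a yardstick, light calls in total RNA took in 11.1% (up) and 10.7% (down) of 17059 probe sets for dcp5-1. For control the shares were 14.4% (up) and 15.1% (down). GH9B8 rose by 1.88 ± 0.39 in dcp5-1 and 2.68 ± 0.39 in control (limma, adjusted p = 0.000966 and 1.06e-05). GH9B12 fell in both genotypes, with -2.10 in dcp5-1 and -1.80 in control. GH9C3 had -0.88 in dcp5-1, which did not pass, and -1.97 in control, which did. The other GH9 genes called in control total RNA were GH9B7 at 0.52 and GH9B5 at -0.77, and their dcp5-1 values of 0.08 and -0.24 did not pass. Genes called higher in dcp5-1 but not in control are not named, as the names were picked by control calls. In control total RNA the calls of GH9C3, GH9B7 and GH9B5 each held in 2 of 6 fits without 1 array, with adjusted p up to 0.0877, 0.11 and 0.105 in limma. They were lost without control dark replicate 2 or control light replicate 2, and also without control light replicate 1 or control dark replicate 3 for GH9C3, and control dark replicate 1 or control light replicate 3 for GH9B7 and GH9B5. The GH9B12 call was lost without control dark replicate 3 (adjusted p = 0.056). The difference between genotypes was not tested for these genes.

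Among pectin methylesterases, which strip methyl groups from homogalacturonan, more genes were called lower than higher in light. Of 19 tested, 2 rose and 6 fell in dcp5-1 total RNA, and 2 rose and 8 fell in control total RNA. Beside this list and those below, 11.1% of all probe sets rose and 10.7% fell in dcp5-1, and 14.4% and 15.1% in control. AT1G02810 changed by -2.76 in dcp5-1 and -4.12 in control (limma, adjusted p = 8.98e-09 and 1.18e-11). AT3G43270 changed by -1.70 in dcp5-1 and -1.90 in control, and AT3G10720 by -0.92 and -1.39. PMEPCRF rose by 1.26 in dcp5-1 and 2.39 in control, and AT5G19730 by 0.80 and 1.50. Pectate lyases, which split de-esterified pectin by elimination, had 4 of 15 higher and 5 lower in dcp5-1 total RNA and 4 higher and 7 lower in control total RNA. AT3G27400 rose by 1.65 in dcp5-1 and 2.12 in control, and AT3G07010 changed by -1.94 and -2.49. Of 6 pectin acetylesterases 1 passed in total RNA, AT1G57590, with 1.96 in dcp5-1 and 1.65 in control, and the control call was lost without control dark replicate 2 (limma, adjusted p = 0.059).

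**Figure D4:**
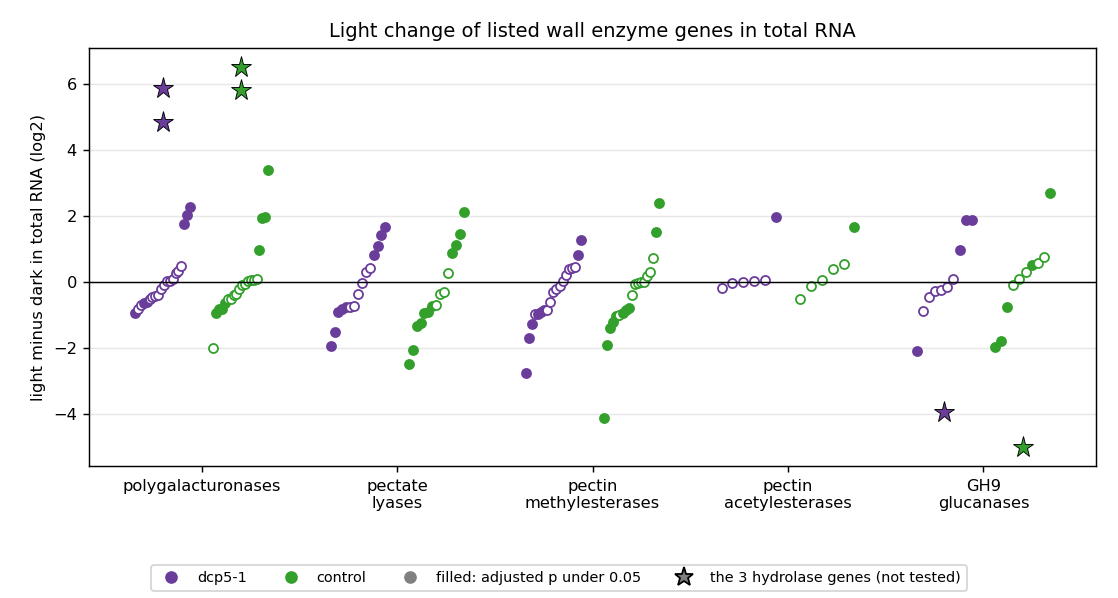
Light minus dark in total RNA (log2, vertical axis) for each tested gene of 5 wall enzyme lists, dcp5-1 in purple left of control in green, filled where the adjusted p is under 0.05, with stars for the 3 hydrolase genes, which were not tested. The stars lie at 5.86 and 4.83 in dcp5-1 and 6.51 and 5.80 in control for the polygalacturonase-like genes and at -3.94 and -5.01 for GH9B13, as the choice of these genes by their light difference fixes.

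For dcp5-1 against control, 7.14% to 11.4% of the 70 listed genes were called in each contrast, beside 2.34% to 4.33% of all probe sets. In limma, 2 of the 70 were higher and 5 lower in dark total RNA, 4 and 4 in dark polysomal RNA, 4 and 3 in light total RNA, and 5 and 0 in light polysomal RNA. Over all probe sets the test called 1.51% higher and 0.838% lower, 1.83% and 1.49%, 2.51% and 0.991%, and 2.85% and 1.47% in the same order. With replicate number as a block the listed counts were 8 and 8, 6 and 7, 8 and 7, and 7 and 8. In light polysomal RNA 12 listed genes were lower at an unadjusted p under 0.05. Leaving out 1 array gave 0 to 2 higher and 3 to 6 lower in dark total RNA, 0 to 4 and 3 to 4 in dark polysomal RNA, 1 to 4 and 0 to 4 in light total RNA, and 2 to 6 and 0 to 2 in light polysomal RNA. A count moved by over 1.5 times without control replicate 1 or 3 or dcp5-1 replicate 2 or 3 (dark total), control 1 or dcp5-1 2 or 3 (dark polysomal), control 2 or 3 or any dcp5-1 replicate (light total), and control 1 or 3 or dcp5-1 2 or 3 (light polysomal). The pectin methylesterase ATPMEPCRB (PME41), named after its values were seen, was higher in dcp5-1 in all 4 contrasts, by 1.30 in dark total, 1.13 in dark polysomal, 1.06 in light total and 1.12 in light polysomal RNA (limma, adjusted p = 0.00626, 0.0148, 0.0201 and 0.0124). Leaving out 1 array of the contrast kept the sign in each case, and the adjusted p was then above 0.05 for 1 array in dark total, 3 in dark polysomal, 3 in light total and 4 in light polysomal RNA. The listed polygalacturonase AT3G16850, also picked after its values were seen, differed by -0.81, -0.88, -0.62 and -0.55 in the same order (limma, adjusted p = 0.00677, 0.00315, 0.0341 and 0.0574). Its calls held in 5 of 6 fits without 1 array in dark total, 6 of 6 in dark polysomal and 1 of 6 in light total RNA. HRGP1, the root marker, was above control in all 4 contrasts and called in 3 of them, and its part was not tested.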

How the data were processed

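The authors deposited log2 signals of 24 ATH1 arrays, and the submitters' processing notes name GCOS 1.4. How the polysomal arrays were scaled is not given in the sources used here, so their level against total RNA is known only relative to the array medians. Total arrays were used as deposited, and each polysomal array was shifted to the mean median of the total arrays. Of 22810 probe sets, 64 controls and the 25% with the lowest mean were left out, which left 17059. All 8 group means entered 1 limma fit (version 3.58.1, R 4.3.3) whose prior variance followed intensity, and p-values were adjusted by Benjamini-Hochberg over all tested probe sets (threshold 0.05). The fit was tested on simulated data. Genes were named from GEO's platform annotation, with 13513 probe sets of 1 gene, 503 of several and 8794 of none, and symbols from RefSeq's table (assembly TAIR10.1).

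The 3 genes and the lists were chosen with earlier results of these data known. Named besides the 3 genes are, for each, the 3 genes with the highest r of group means, and from each list up to 3 genes called higher and 3 called lower with the smallest adjusted p for light in control total or polysomal RNA, not all of which are printed. Samples with the same replicate number deviated together, with residual correlations of 0.152 to 0.61 in all 12 pairs of groups, so the numbers pair the samples. The main fit did not use this pairing, and only the replicate block, run as an alternative, did. Alternatives were other scalings, quantile normalisation, the replicate block, other filters, fits on the compared groups alone, no intensity trend and leaving out each array. The number of arrays, the dim dark signals of AT1G60590 and AT1G48100 and the unknown polysomal scaling limit the precision. Tests of these 2 genes in the dark are not given, since they passed the filter through the light arrays. A search of promoters for motifs was not run, as no promoter sequences were used here.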

Additional observations from a re-analysis of the deposited data

Results flagged for a closer look

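In 3 cases every replicate pair of dcp5-1 against control moved one way in the light and the opposite way in the dark. The share of all probe sets that do so is not given here. Some pairs of GH9B13 were small, with -0.013 in dark total RNA and 0.082 in light polysomal RNA. AT1G48100 in total RNA had a dcp5-1 minus control difference of -0.37 in light and 0.60 in the dark, where its signals were dim, a change of -0.97. For GH9B13 in total RNA the difference was 0.69 in light and -0.38 in the dark, a change of 1.07. In polysomal RNA GH9B13 had 0.98 in light and -0.35 in the dark, a change of 1.33. The difference between light and dark was not tested in any of these, since the genes were chosen for their light response, and only the GH9B13 value in light polysomal RNA passed limma's test of dcp5-1 against control.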

How the results depend on the processing

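Light differences of the 3 genes kept their direction under every alternative run, from median centring and quantile normalisation to leaving out each of 24 arrays, and with the polysomal arrays as deposited GH9B13 had -3.65 for light in control polysomal RNA. That setting, in which no offset between polysomal arrays is removed, gave GH9B13 0.43 for light by genotype in polysomal RNA and 1.37 for the light change of loading in control. For dcp5-1 against control in dark polysomal RNA it gave 1.83 for AT1G60590 and 2.03 for AT1G48100, both from dim signals, and 0.54 for GH9B13, a reversed sign, and in light polysomal RNA 0.98 for GH9B13 with an adjusted p of 0.337. Loadings under it were -1.54 (dcp5-1 dark), -0.94 (control light, reversed) and -3.07 (control dark) for AT1G60590, -2.09 (dcp5-1 light), -1.92 (dcp5-1 dark), -2.06 (control light) and -3.36 (control dark) for AT1G48100, and -0.037, -0.77, -0.32 and -1.69 for GH9B13 in the same 4 conditions, all reversed. Quantile normalisation gave -0.072 for the loading of AT1G60590 in control light. Fits on the compared groups alone gave the same estimates with other calls: 0.98 for GH9B13 in light polysomal RNA (adjusted p = 0.236), 0.91 for its loading in dcp5-1 light (0.0649), and -1.14 and -1.11 for the loading of AT1G48100 in dcp5-1 and control light (0.00447 and 0.0355).

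Leaving out 1 array gave AT1G60590 a dcp5-1 minus control difference of -0.24 to 0.80 in dark total RNA and -0.45 to 1.83 in dark polysomal RNA, with 0.28 to 1.99 in dark polysomal RNA for AT1G48100 and 0.68 to 1.32 in light polysomal RNA for GH9B13. Loadings ran from -0.40 to 0.15 (dcp5-1 light), -0.66 to 0.40 (dcp5-1 dark), -0.33 to 0.30 (control light) and -1.73 to 0.54 (control dark) for AT1G60590, from -1.98 to -0.27 (control dark) for AT1G48100, and from 0.71 to 1.26 (dcp5-1 light) and 0.43 to 0.93 (control light) for GH9B13. For GH9B13 the light difference in dcp5-1 total RNA ran from -4.12 to -3.77 and light by genotype in total RNA from 0.89 to 1.24.

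With the replicate block, which adds replicate number to the fit, no call of the 3 genes changed, and GH9B13 had adjusted p of 0.0124 for dcp5-1 against control in light polysomal RNA and 0.0103 for loading in dcp5-1 light. The block raised the calls over all probe sets for dcp5-1 against control to 1127, 1618, 1512 and 1706 (dark total, dark polysomal, light total, light polysomal), against 400, 567, 598 and 738, and for loading to 3990, 4060, 4113 and 3807 (dcp5-1 light, dcp5-1 dark, control light, control dark), against 2166, 2359, 2343 and 2140. With the compared groups alone these were 212, 209 and 315 (dark total, dark polysomal, light polysomal), and 936 and 1100 (loading in control light and control dark). As deposited, they were 98, 10143, 152 and 176 for dcp5-1 against control, 9352, 13743, 9353 and 16785 for loading, and 1999 (dcp5-1 total), 2989 (control total) and 13310 (control polysomal) for light, against 3717, 5029 and 4970. The cause of these changes in the counts was not tested.

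For light in the enzyme lists that setting gave 8 higher and 8 lower in dcp5-1 total, 12 lower in control total, 3 lower in dcp5-1 polysomal and 40 higher and 4 lower in control polysomal RNA. It reversed the light difference in control polysomal RNA of AT3G57790 (0.50), AT3G06770 (0.26), AT3G16850 (0.52), AT1G04680 (0.083), AT3G24670 (0.12) and GH9B5 (0.54), and the dcp5-1 difference in dark polysomal RNA of AT3G16850 (0.013) and AT5G26670 (0.11). The genotype counts of the lists and the likeness of group means were run under alternatives chosen after seeing the data, and r with the named genes ran from 0.747 to 0.998 over them. With 3 arrays a group, and dark levels of AT1G60590 and AT1G48100 near the low end of the arrays, the size of their light differences is limited by the dim dark signals.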
